A study of Rattus norvegicus with 8 samples.

Results

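The choroid plexus is the tissue that hangs in the brain's ventricles and secretes cerebrospinal fluid, and 9 of its marker genes were followed here in cortex of adult Wistar rats: Ttr, Kcnj13, Aqp1, Kl, Folr1, Clic6, Slc4a5, Prlr and Cldn2. A probe was taken for a gene when its accession, without version, belonged to that gene in RefSeq. This gave 1 probe for each of 8 of the 9 genes. No probe was matched to Cldn2, which was not analysed here. The whole series has 41012 probes, and 21677 genes passed a filter on dim probes, among them 4 of the 8 markers with a probe (Ttr, Kcnj13, Aqp1 and Folr1). Of these, Kcnj13, Aqp1 and Folr1 passed through the HI arrays only.

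Each of 8 animals gave 1 single-colour array at 8 weeks of age. The hypoxia-ischemia (HI) group held 4 Wistar rats in which the left carotid artery was cut at 7 days of age, followed by 1 h in 8% oxygen at 33 °C. The control group held 4 Wistar rats without this insult. In the HI animals the cortex opposite the injured hemisphere was taken, and in the controls the cortex of that same side, so the tissue is not the injured cortex itself. The labels give neither the sex of the animals nor the borders of the dissected piece.

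Choroid plexus epithelium is a single layer of cuboidal cells joined by tight junctions, lying over a stroma with leaky vessels. It moves sodium, chloride, bicarbonate and water from blood to ventricle, and it makes transthyretin, a carrier of thyroid hormone, as its most typical secreted protein. Several of these genes are also expressed outside the choroid plexus. In bulk tissue a lower signal can mean fewer cells of a type or less RNA in each cell, and these cannot be told apart here.

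Promoter windows show where the transcription of the markers starts. They run from 250 bases before to 50 bases after the start listed in RefSeq (build GRCr8), and 6 of the 9 markers had 1 or more. Those of the 3 markers leading the account below are printed 5′ to 3′, to let a reader look for letters that they share. They are Ttr (chr18:12218508-12218807, plus strand), Kcnj13 (chr9:95518937-95519236, minus strand) and Aqp1 (chr4:85812534-85812833, plus strand), and the capitals mark motif matches on either strand.
Ttr: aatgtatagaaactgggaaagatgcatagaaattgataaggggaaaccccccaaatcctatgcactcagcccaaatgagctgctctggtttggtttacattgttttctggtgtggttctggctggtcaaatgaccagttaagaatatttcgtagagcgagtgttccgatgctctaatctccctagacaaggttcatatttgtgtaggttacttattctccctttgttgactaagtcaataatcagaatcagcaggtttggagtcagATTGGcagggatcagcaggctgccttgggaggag
Kcnj13: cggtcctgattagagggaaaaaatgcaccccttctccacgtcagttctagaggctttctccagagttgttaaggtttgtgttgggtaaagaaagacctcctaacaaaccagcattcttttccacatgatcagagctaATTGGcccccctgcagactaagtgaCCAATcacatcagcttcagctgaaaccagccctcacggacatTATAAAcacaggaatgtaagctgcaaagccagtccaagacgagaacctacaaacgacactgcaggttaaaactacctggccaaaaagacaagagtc
Aqp1: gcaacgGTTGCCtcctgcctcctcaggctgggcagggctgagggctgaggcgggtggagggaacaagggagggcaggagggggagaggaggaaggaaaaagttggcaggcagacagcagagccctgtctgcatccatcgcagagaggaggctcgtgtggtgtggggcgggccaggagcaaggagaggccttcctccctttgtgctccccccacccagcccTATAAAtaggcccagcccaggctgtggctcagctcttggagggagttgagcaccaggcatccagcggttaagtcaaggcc
The motifs searched were the homeodomain core TAATCC (bound by Otx2), the forkhead core GTAAACA, the core GTTGCC of RFX factor sites, the TATA box core TATAAA and the CCAAT box, of which the last 2 were added after the sequences had been seen. No motif overlapped another in the printed windows. The TATA core lay 30 bases before the start in Aqp1 and 46 bases before it in Kcnj13. It is held by 14.2% of the 33469 windows in the RefSeq table. The CCAAT box was found in Ttr, Kcnj13 and Slc4a5, against 37.5% of all windows. Its single match in Ttr lay after the start, and those in the other markers before it. The RFX core was found in Aqp1 (12.2% of all windows), and the homeodomain (7.17%) and forkhead (3.78%) cores in none of the 7 windows of the markers. A match of letters is not evidence of binding.

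Each level is a log2 ratio of the probe's processed signal to the 75th percentile of its array, so that 0 is the level of the 75th percentile probe. Levels are compared between arrays for 1 probe at a time. A probe is called well above background by the flag that the scanner software gave it. Values without that flag lay near the array's floor, where order carries no information.

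Ttr encodes transthyretin. Its level was 0.11, 3.86, 8.00 and 7.83 in HI 1 to HI 4, and -0.97, 7.62, -0.99 and 1.41 in control 1 to control 4. It was high in HI 3, HI 4 and control 2, in between in HI 2 and low in the other 4 animals, so high and low animals occurred in both groups. The highest and the lowest of the 8 arrays differed 506-fold, and the probe was well above background on every array and saturated on none. In processed intensity the values ran from 530.9 to 121482 in HI cortex and from 119.5 to 100467 in control cortex.

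Of the ion and water movers, Kcnj13 encodes the inward rectifier potassium channel Kir7.1, which in this epithelium lies in the apical membrane. It measured -3.88, -0.39, 2.23 and 2.06 in HI 1 to HI 4, and -5.99, 2.20, -5.68 and -4.89 in control 1 to control 4. The same 3 arrays were highest and HI 2 came next, while 3 of the 4 controls were not well above background. Aqp1, the water channel of the apical membrane, measured -4.31, -1.99, 1.28 and 1.08 in HI 1 to HI 4, and -4.74, 1.25, -4.43 and -3.46 in control 1 to control 4. The same 3 arrays were highest, within 0.192 of each other, and HI 2 came next. The Aqp1 probe is printed on 10 spots. Their SD on an array was 0.018 to 0.475, the largest on control 1, where the probe was not well above background. A gap of 3.07 separated the 3 highest arrays from the next. The spot SD covers error within an array and not the spread between animals.

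Slc4a5, a sodium bicarbonate cotransporter, measured -6.97, -5.37, -1.40 and -1.82 in HI 1 to HI 4, and -6.19, -1.57, -6.80 and -6.32 in control 1 to control 4. Only HI 3, HI 4 and control 2 were well above background. Clic6, of the chloride intracellular channel family, measured -6.86, -4.19, 0.04 and -0.35 in HI 1 to HI 4, and -6.05, 0.12, -5.71 and -3.35 in control 1 to control 4. Beside the same 3 arrays, HI 2 and control 4 were well above background for Clic6.

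Of the receptors, Folr1 encodes folate receptor alpha, which carries folate into cerebrospinal fluid. It measured -2.73, -2.62, 1.45 and 1.36 in HI 1 to HI 4, and -4.06, 1.26, -2.93 and -2.31 in control 1 to control 4. Here HI 2 lay among the low arrays, unlike its place for Ttr, Kcnj13 and Aqp1, and all arrays but control 1 were well above background. Prlr, the prolactin receptor, measured -6.83, -6.89, -2.34 and -2.85 in HI 1 to HI 4, and -6.25, -2.55, -7.19 and -6.54 in control 1 to control 4. Only the same 3 arrays were well above background, and HI 2 was again low. Its 10 spots had an SD of 0.051 to 1.33, largest where the probe was dim.

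Kl encodes klotho, the co-receptor of the hormone FGF23. Its level was -6.72, -5.09, -1.22 and -1.10 in HI 1 to HI 4, and -6.29, -1.16, -7.59 and -6.59 in control 1 to control 4. HI 3, HI 4 and control 2 were well above background and the other 5 arrays were not.

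**Figure D1:**
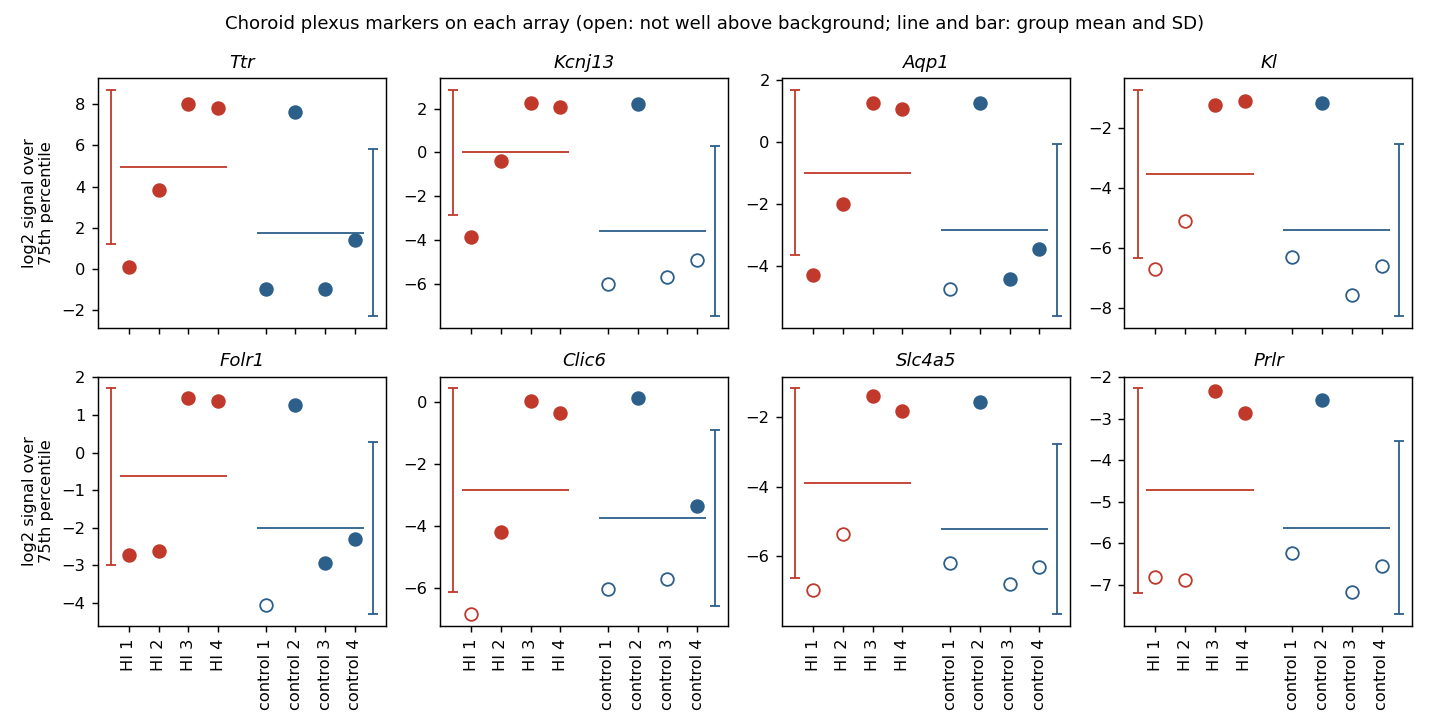
Level of each marker on each array (vertical axis, log2 signal over the 75th percentile; horizontal axis, array), with HI in red left of control in blue, filled points well above background, and lines and bars for the group mean and SD. In all 8 panels HI 3, HI 4 and control 2 stand highest, with at least 2.45 separating them from the next array.

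All 8 markers had their 3 highest values in HI 3, HI 4 and control 2. Among the 12055 other genes compared with Ttr, 2.13% had the same 3 highest arrays. A gap of at least 2 log2 units below those 3 was found in all 8 markers and in 0.299% of the genes compared. For Kl, Slc4a5 and Prlr the lower side of the gap is background signal, so the measured gap is not the full size of the difference. Among these 3 arrays the levels of a marker spanned 0.124 (Kl) to 0.514 (Prlr), with 0.471 for Clic6, 0.424 for Slc4a5 and 0.377 for Ttr. The genes compared were those whose brightest probe was well above background on at least 3 arrays and whose range over the arrays was at least 1 log2 unit. Kl, Slc4a5 and Prlr met this through HI 3, HI 4 and control 2 only. Their place in these counts is therefore tied to the filter and is not separate support. Both shares include the other markers themselves.

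The markers were also among the genes that varied most between animals of 1 group. Ranked by the SD within groups over the 12056 genes, Ttr included, all 8 markers stood between places 2 and 39. Kl, Slc4a5 and Prlr were well above background on 3 arrays only, through which they met the filter, and Kcnj13 and Clic6 on 5. The SD and place of these markers therefore rest in part on values near the floor. The first place was held by Sostdc1, a secreted inhibitor of BMP and Wnt signalling that choroid plexus epithelium makes. It measured -4.26, -0.21, 4.12 and 4.36 in HI 1 to HI 4, and -5.14, 4.08, -4.29 and -2.50 in control 1 to control 4, with the same 3 arrays highest and HI 2 next.

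Likeness between genes was measured with Pearson's r over the 8 arrays. HI 3, HI 4 and control 2 stand apart from the other arrays, so r mostly records that separation. The relation across animals cannot be tested in separate clusters of this size, and r is given as a description. The points of such a comparison share array, dye labelling and scaling. Between Ttr and the other 7 markers r ran from 0.909 (Prlr) to 0.995 (Aqp1), with Spearman's rho from 0.762 to 0.952. Over the 28 pairs of markers r ran from 0.862 to 0.995, with a median of 0.952, and rho from 0.667 to 0.976. The arrays of HI 3 and HI 4 lay farthest from the median of Ttr. Over the 6 arrays left without them r with Ttr ran from 0.816 (Prlr) to 0.990 (Aqp1), and control 2 is then the single array at the high end.

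An r of at least 0.9 with Ttr was reached by 91 of 12055 genes, or 0.755%. They were the 7 other markers, 35 more genes with a symbol and 49 that carry only an accession or cluster name. A single gene, without a symbol, had an r of -0.9 or below. With Spearman's rho the count was 54, and with background correction by normexp and 75th percentile scaling it was 46 (73 with quantile scaling).

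The 15 named genes nearest to Ttr had r from 0.955 to 0.996. Sostdc1 (r = 0.996) and Sulf1 (0.996), an enzyme that removes sulfate from heparan sulfate, were followed by Glycam1 (0.993), a mucin-like glycoprotein. Msx1 (0.982), a homeobox factor, and Ocln (0.980), the tight junction protein occludin, came next. The transporters in this set were Slco1a5 (0.967), which carries organic anions, Slc16a8 (0.968), a lactate transporter, and Slc4a2 (0.955), the chloride bicarbonate exchanger AE2. Cltrn (0.974), which assists amino acid transporters in kidney, and Ace (0.966), the angiotensin-converting enzyme, are membrane proteins. Ezr (0.967) encodes ezrin, which ties microvilli to actin, and Tspo (0.963) a protein of the outer mitochondrial membrane. Nt5dc2 (0.966), Paqr5 (0.961) and Elmo3 (0.959) complete the 15.

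The size of the swing differed among these genes. Cltrn measured -6.95, -4.57, 0.26 and 0.15 in HI 1 to HI 4, and -6.11, 0.12, -7.29 and -6.19 in control 1 to control 4. Ezr measured 3.53, 3.73, 4.28 and 4.12 in HI 1 to HI 4, and 3.09, 4.17, 3.37 and 3.59 in control 1 to control 4. Both had the same 3 arrays highest, but for Ezr only 0.396 separated them from the next array. All 15 genes had their 3 highest values on these arrays, and the gap was over 2 for Sostdc1, Glycam1, Cltrn, Slc16a8, Slco1a5 and Ace. The 15 were chosen for their r with Ttr, which mostly records the separation of these arrays. Sharing them therefore follows largely from the choice and is not separate support. Slc16a8 was well above background on these 3 arrays only, so the lower side of its gap is background signal.

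**Figure D2:**
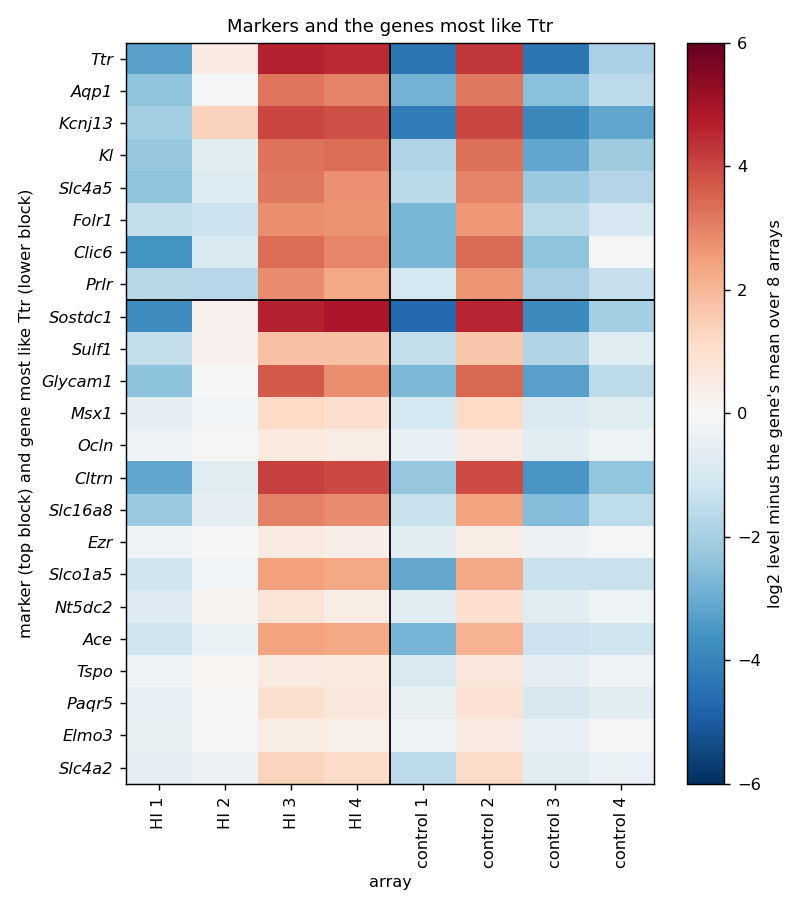
Level of the 8 markers (upper block) and the 15 named genes most like Ttr (lower block) on each array, HI left of control, as log2 level minus the gene's mean over the 8 arrays (colour). HI 3, HI 4 and control 2 are red in every row. HI 2 comes next in every row of the lower block and for all markers but Folr1, Clic6 and Prlr. For Kl, Slc4a5 and Slc16a8 the HI 2 value is background signal.

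The 5 named genes farthest from Ttr were Tgfbr1, a TGF-beta receptor (r = -0.81), Apobec1, an RNA editing enzyme (-0.80), Adarb2 (-0.78), Chrng, a subunit of the muscle acetylcholine receptor (-0.77), and Tbx3, a T-box factor (-0.74). Their within-group SD was at most 0.638, against 3.91 for Ttr.

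A wider list of 40 genes of choroid plexus epithelium was written with earlier results of these data known. Of its 24 genes with a probe 19 could be compared with Ttr. Of the 19, 10 had an r of at least 0.9, beside 0.755% of all genes compared. Enpp2, the lysophospholipase autotaxin, measured 2.87, 2.87, 5.47 and 5.23 in HI 1 to HI 4, and 2.52, 5.18, 2.54 and 3.11 in control 1 to control 4. As for Folr1, HI 2 lay with the low arrays. Igfbp2, a binding protein of insulin-like growth factors that meninges make too, was different, at -0.89, 3.27, 2.07 and 1.80 in HI 1 to HI 4 and -3.89, 1.96, -1.58 and -1.46 in control 1 to control 4. Its highest array was HI 2. Near the other end Htr2c, a serotonin receptor found in neurons as well, had an r of 0.25. Its probe was well above background on 3 arrays only. This r therefore rests in part on values near the floor, and it cannot show how Htr2c and Ttr are related.

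**Figure D3:**
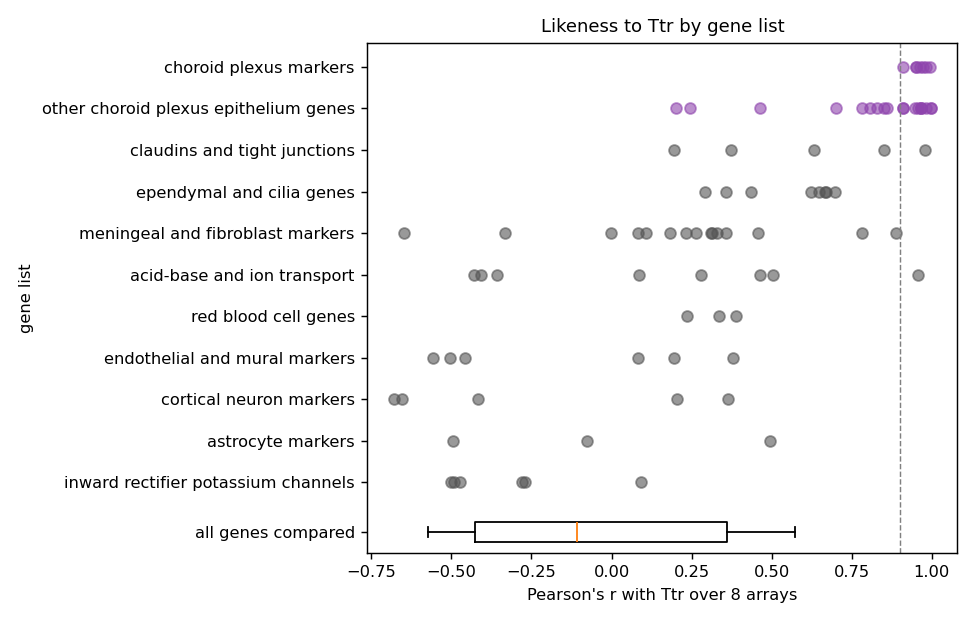
Pearson's r with Ttr over the 8 arrays (horizontal axis) for the genes of 11 lists (vertical axis), each point a gene, with the choroid plexus lists in purple and a box (quartiles, whiskers at the 5th and 95th percentile) for all 12055 genes compared. All 7 other markers and 10 of 19 further choroid plexus genes lie right of the dashed line at 0.9, with Slc4a2 and Ocln from the other lists drawn.

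Markers of neighbouring tissues were set beside these values, since a dissection can include them, and their part in the differences was not tested. Of the 8 ependymal and cilia genes compared, 0 reached an r of 0.9 and the highest was Tekt4 at 0.70, but 4 of the 8 had the same 3 highest arrays as Ttr, beside the 2.13% given above. Their summed level was 5.98, 5.58, 9.87 and 9.79 in HI 1 to HI 4, and 4.96, 11.5, 5.10 and 6.76 in control 1 to control 4, on a linear scale on which the 75th percentile is 1. The sum was highest on the 3 arrays rich in Ttr. Foxj1, the master factor of motile cilia, measured 1.48, 0.49, 2.52 and 2.53 in HI 1 to HI 4, and 1.58, 2.74, 1.31 and 1.76 in control 1 to control 4. It was highest on the 3 arrays rich in Ttr and lowest in HI 2.

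Of the 15 meningeal and fibroblast markers compared 0 reached an r of 0.9, with a median of 0.26. Fmod, the collagen-binding fibromodulin, was nearest (0.89), followed by Igf2 (0.78), an insulin-like growth factor that both meninges and choroid plexus express, and Bmp6 (0.46), and Slc22a6 (-0.33) and Slc22a2 (-0.65) were farthest. The summed level of the 16 meningeal genes measured was 54.2, 492.4, 111.1 and 112.7 in HI 1 to HI 4, and 55.8, 100.8, 45.8 and 57.6 in control 1 to control 4. HI 2 stood highest by far, and the 3 arrays rich in Ttr came next. The sum includes Igf2, which is on the wider choroid plexus list too. Its log2 level was 5.33, 5.14 and 5.07 in HI 3, HI 4 and control 2. It was 3.17 in HI 1 and 2.50 to 2.79 in the other controls. Of the 15 meningeal genes compared, 0 had the same 3 highest arrays as Ttr. How far single genes set the order of the sums was not tested. No array had a summed level of 0 for any list.

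Cortical neuron markers were abundant on every array. Their summed level over 7 genes ran from 128.0 to 141.7 in HI cortex and from 123.1 to 183.8 in control cortex, and the synaptic protein gene Snap25 measured 4.43 or more on every array. The sum over 8 astrocyte genes ran from 130.1 to 150.1 in HI cortex and from 134.0 to 150.7 in control cortex. Hippocampal markers summed to 2.73 in HI 2, against 10.4 to 13.4 on the other HI arrays and 10.6 to 17.1 on the control arrays. Of the 3 genes summed, Wfs1 and Grp were lowest in HI 2, and Nptx2 was not. On the 3 arrays rich in Ttr the hippocampal sum was 10.4 in HI 3, 12.5 in HI 4 and 10.6 in control 2. It was 13.4 in HI 1, and 11.2, 12.8 and 17.1 in control 1, control 3 and control 4, so HI 3 and control 2 lay below these 4 arrays.

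The comparison of HI with control asked whether the markers differed with the neonatal insult. None of the 8 markers passed limma's test with Benjamini-Hochberg adjustment over all genes (adjusted p = 0.564 to 0.791), and none had an unadjusted p under 0.05. The background was 0.918% of 21677 genes called (199 genes, 42 higher and 157 lower after HI), with 10.6% at an unadjusted p under 0.05. All 8 markers had HI and control arrays that overlap, where 14.2% of genes had arrays that do not. The markers that did not pass the filter (Kl, Clic6, Slc4a5 and Prlr) were tested in the same fit over all 36602 genes without a filter, where 0.396% were called.

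Ttr averaged 4.95 ± 3.75 in HI cortex and 1.77 ± 4.06 in control cortex (SD, n = 4 each). The log2 difference was 3.18 (SE 2.40, 95% interval -2.34 to 8.71; limma adjusted p = 0.588). Kcnj13 averaged 0.00 ± 2.85 in HI cortex and -3.59 ± 3.89 in control cortex (SD, n = 4 each), a difference of 3.60 (SE 2.09, 95% interval -1.22 to 8.41; limma adjusted p = 0.564). Kcnj13 was well above background on 4 HI arrays and on 1 control array, so its difference rests on background values in 3 controls. After normexp it was 1.68 with quantile scaling and 1.48 with percentile scaling, while Ttr was at 3.04 and 3.01. These intervals leave room for a large difference in the direction of HI and for one of opposite sign, so they do not show that the groups are alike.

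For the other 6 markers the log2 difference lay between 0.91 (Clic6 and Prlr) and 1.88 (Kl), with standard errors of 1.40 to 1.88. Kl, Slc4a5 and Prlr were at background on 5 of 8 arrays and Clic6 on 3, so these sizes rest in part on values near the floor. After normexp with percentile scaling the difference was 0.31 for Kl, 0.17 for Slc4a5, 0.041 for Prlr, 0.28 for Clic6, 0.95 for Aqp1 and 0.81 for Folr1. All 8 differences were above 0 and their median was 1.62, beside -0.03 for all genes tested. The markers move together over the arrays and are not independent observations. Of the 3 arrays rich in their transcripts, HI 3 and HI 4 are HI arrays and control 2 is a control array. Single arrays moved the values by over 1.5 times. Without control 2 the median was 2.89, with Ttr at 5.13, and without HI 3 or HI 4 it was 0.89 for either, with Ttr at 2.17 without HI 3. Without HI 1 the median was 2.65. Background correction by normexp gave 0.78 with quantile scaling and 0.56 with percentile scaling, and array weights gave 0.044.

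**Figure D4:**
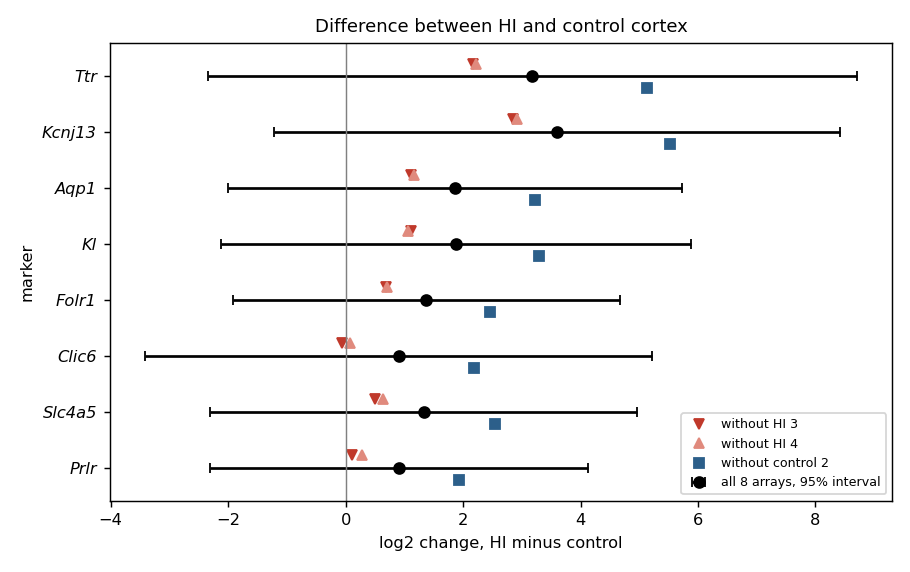
Log2 change of each marker, HI minus control (horizontal axis), with all 8 arrays and its 95% interval (black), and without HI 3, HI 4 or control 2. Every interval includes 0, and leaving out control 2 raises each value while leaving out HI 3 or HI 4 lowers it.

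Genes that work with the markers were read from further lists, also written with earlier results known. Over the 19 lists beside the markers, 137 genes were tested, 0 passed limma's test over all genes (lowest adjusted p = 0.0956), and 8 had a p under 0.05 before adjustment (3 of them higher after HI, 5 lower), beside the 10.6% given above. The 3 were the red blood cell genes Alas2, Hbb and Slc4a1, and the 5 were Kdr, Gad2, Calb2, Penk and S100b. The wider choroid plexus list had 16 of 19 tested genes above 0 and a median log2 difference of 0.77, with Igfbp2 at 2.81 (SE 1.29), Sostdc1 at 2.96 (SE 2.53) and Slco1a5 at 1.72 (SE 1.25).

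Of the partners in thyroid hormone transport and response, 10 genes were tested, with 4 above 0 and a median of -0.08, and 0 of the 6 compared with Ttr reached an r of 0.9. The receptor gene Thrb (-0.45) and Crym (-0.46), a thyroid hormone-binding protein, were farthest. Retinoid genes had 5 of 6 above 0 and a median of 0.28. Genes of prolactin receptor signalling had 4 of 5 above 0 and a median of 0.01, and Socs2, a suppressor of cytokine signalling and the single one compared with Ttr, had an r of -0.58. Genes of klotho and endocrine FGF signalling had 3 of 4 above 0 and a median of 0.42.

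Folate genes had 3 of 6 above 0 and a median of 0.06, and Slc19a1, the reduced folate carrier, had an r of 0.69 with Ttr. Of 13 acid-base and ion transport genes 5 lay above 0 (median -0.18). In that list Slc4a2 alone passed an r of 0.9, ahead of Slc12a2, the sodium potassium chloride cotransporter (0.50), while Slc4a8 (-0.41) and the cotransporter Slc4a4 (-0.43) were farthest. Beside Aqp1, 4 aquaporins were tested, 2 on either side of 0 (median -0.02), and Aqp2 and Aqp5, which could be compared with Ttr, both had an r of -0.32. Beside Kcnj13, 11 inward rectifier genes were tested, with 4 above 0 (median -0.10). Their r with Ttr ran from -0.50 (Kcnj12) to 0.09 (Kcnj11). Of 7 tight junction genes 5 lay above 0 (median 0.40), and after Ocln the nearest to Ttr were Cldn1 (0.85) and F11r (0.63).

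For the tissue lists not yet given, the median log2 difference was -0.05 over 8 ependymal genes, 1.08 over 14 meningeal genes, 0.95 over 3 red blood cell genes, 0.15 over 10 endothelial and mural genes and -0.14 over 7 cortical neuron genes. It was -0.62 over 3 hippocampal genes, -0.21 over 5 thalamic genes, -0.04 over 6 striatal genes and -0.07 over 8 astrocyte genes. None of these lists held a gene with an r of 0.9 or above.

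The array of control 1 stood apart, with a 75th percentile of 234.2 in processed intensity where the other 7 arrays had 436.1 to 510.2. The lowest level called well above background was -4.08 there and -5.33 to -4.43 elsewhere. Each group was hybridised on its own slide and scanned together, which means that the slide and the scan cannot be told apart from the group. The 3 arrays rich in choroid plexus transcripts lay on both slides. With 4 arrays a group, precision is limited by their number.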

How the data were processed

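RNA of cortex from 8 rats was measured on single-colour Agilent arrays, 1 for each animal, per the labels. The scanner files were written by Agilent Feature Extraction, release 9.5.3.1 per the file headers, and hold an intensity for each spot. Per the file headers its processed signal was used, with other deposited columns that mark dim, saturated and outlying spots. The authors' deposited table holds log2 values of unstated scaling, which correlated at 0.9997 or more with the levels used here once each probe was centred. Its column medians were 0.48 for control 1 and -0.05 to 0.04 for the others.

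Control and outlying spots were left out, and the spots of a probe averaged. Of 41012 probes 10735 were named through RefSeq (GRCr8), which served only for names and promoter windows. The filter asked for a signal well above background on every array of either group. A gene was represented by its probe of highest mean. The test was limma (3.58.1, in R 4.3.3) with a threshold of 0.05 on the adjusted p. On simulated data for this comparison (21630 genes) it recovered 44% of genes changed 2-fold and 86% of those changed 8-fold, with 14 false calls among 129.

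Named genes were the markers, the 15 most and 5 least like Ttr, and the extremes of the lists, some of which are given only as ranges or are not reported here. The members, lists and tests were chosen with earlier results of these data known. Alternatives were other scalings and filters, normexp on the median spot signal (offset 50), the authors' table, other variance models, a replicate block and leaving out arrays. Leaving out control 1 with control 2, and the 2 arrays farthest from the median of Ttr, was added after seeing the data.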

Additional observations from a re-analysis of the deposited data

Results flagged for a closer look

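Among the 8 markers and the 20 named genes, 56 sets of 4 arrays were looked at for a single array far from the other 3 of its group, and 4 stood out, all in control 2. For independent sets chance gives about 1 in 20. These sets are not independent, since the markers move together and 15 of the genes were chosen for their likeness to Ttr, which is itself high in control 2, so that rate does not apply to them. Kcnj13 measured 2.20 in control 2, against -5.99 to -4.89 in the other controls, which are all background values. Slc4a5 measured -1.57 there, against -6.80 to -6.19, which are all background values too. Msx1 measured 2.31 in control 2, against 0.08 to 0.41. Cltrn measured 0.12 there, against -7.29 to -6.11, again all background values. Control 2 was also the highest control for the other 6 markers.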

How the results depend on the processing

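The 8 markers gave 169 values under the alternatives. None passed the threshold (lowest limma adjusted p = 0.2), 164 kept the sign of the value reported and 5 turned it. With array weights the log2 change was -1.09 for Kl, -1.90 for Clic6, -1.22 for Slc4a5 and -1.02 for Prlr, and leaving out single arrays gave -0.056 (without HI 3) to 2.25 for Clic6. The cause was not tested. The median change of the markers ran from 0.89 to 2.89 without single arrays. The count of all genes called was 1327 with array weights, 69 with the replicate block, 706 without control 1 and HI 2 together and 601 without control 1 and control 2 together, the last chosen after seeing the data. Without single arrays it ran from 116, without HI 3, to 793, without control 1. The replicate block changed no call among the markers. Animals of the same number correlated at -0.16 to 0.03 in their deviations from the group means, so no likeness by number was seen. Whether they share more than a number was not tested. The count of genes with an r of 0.9 with Ttr was 46 after normexp with 75th percentile scaling, 54 with rho, 68 over the 6 arrays without HI 3 and HI 4 and 73 to 143 without single arrays, highest without HI 2. The median r of the markers with Ttr stayed between 0.903 and 0.981 under the alternatives, and the median rho was 0.857. With the filter that asks for signal on all 8 arrays Ttr alone of the markers could be tested, and no median was made. Signal near background limits Kl, Slc4a5 and Prlr on 5 arrays each.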

Other observations

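HI 2 combined a Ttr level between the high and the low arrays with the highest meningeal signal of the 8 arrays. For the collagen gene Col1a2 the level was 5.28 in HI 2, against 1.46 to 1.90 in the other HI animals and 0.69 to 1.09 in the controls. For Slc6a13, a GABA transporter of the meninges, it was 2.35 in HI 2, against -1.51 to -1.46 in the other HI animals and -1.39 to -1.12 in the controls. On the arrays rich in Ttr (HI 3, HI 4 and control 2) Slc6a13 measured -1.48, -1.46 and -1.39, against -1.51 in HI 1 and -1.27 to -1.12 in the other controls. Igf2 was high on all 4, at 6.68 in HI 2 and 5.33, 5.14 and 5.07 in HI 3, HI 4 and control 2, against 3.17 in HI 1 and 2.50 to 2.79 in the other controls.

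Genes with the same 3 highest arrays as Ttr and a gap of at least 2 below them included 14 named genes outside the 8 markers, picked out after their values were seen. Beside the genes described above they held Kcne2, a potassium channel subunit, at -4.33, -3.75, -0.36 and -0.50 in HI 1 to HI 4 and -6.33, -0.62, -4.29 and -3.70 in control 1 to control 4. The others were Xcl1, Rbm47, Pla2g5, Cox8b, Adipoq and Pon1. Another 15 genes of this kind carry only an accession or cluster name. Xcl1, Rbm47, Adipoq and Pon1, like Slc16a8, were well above background on the 3 highest arrays only. They met the filter through those arrays, and the lower side of their gap is background signal.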
